A study of Mus musculus with 10 samples.

Results

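Day 6 of reprogramming, the midpoint of a 9-day induction, was compared with the starting fibroblasts by the positions of open chromatin in 2 libraries of each. Overlapping peaks of the 4 lists were merged into regions, of which there were 132384. A region was called gained when both day 6 lists and neither fibroblast list had a peak in it, and lost in the reverse case. This gave 20156 gained and 22365 lost regions, together 42521 of the 132384, against 208851 regions when the lists of all 10 libraries of the series are merged.

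The series used ATAC-seq, in which a transposase inserts sequencing adapters into open DNA, to follow mouse cells on the way to pluripotency, and its title places it in work on KLF4 and enhancer networks. The fibroblast group (MEF) consisted of mouse embryonic fibroblasts of mixed C57BL/6 and 129 background. They carried a doxycycline-inducible polycistronic cassette (OKSM), which encodes Oct4, Klf4, Sox2 and Myc, at Col1a1 and the M2rtTA activator at Rosa26. They were grown in fibroblast medium without doxycycline and were not sorted. The day 6 group (DAY6) came from the same kind of fibroblasts after 6 days in stem cell medium with 1 ug/ml doxycycline and 50 ug/ml ascorbic acid. These cells were sorted for SSEA1, a carbohydrate surface antigen of early reprogramming intermediates. Each library was made from 50000 cells. The cassette and the activator were thus present in both groups, while doxycycline, ascorbic acid, the medium, time in culture and sorting all differed, and their effects cannot be told apart. Day 3 (DAY3, unsorted), day 9 (DAY9, sorted) and embryonic stem cell (ESC, V6.5 line without the cassette) libraries were not used to call regions and served for the later comparisons.

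Reprogramming factors bind sites in closed as well as open chromatin, and a fibroblast has to close the enhancers of its own gene program while it opens those of another. A mesenchymal-to-epithelial transition, in which cell junction genes such as the cadherin gene Cdh1 come on and Snail, Twist and Zeb repressors go down, is a known early part of the process. Many fibroblast enhancers hold the motif of AP-1, a dimer of Fos and Jun proteins, whereas pluripotency enhancers are known for joint sites of Oct4 and Sox2 and for sites of Klf factors.

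Promoters of 6 genes are printed here to show the motifs whose shares in the 2 sets are given further on. They were picked because they hold a match, and other promoters of the same set hold none. Each is the 250 bases before a RefSeq transcription start (GRCm38.p6, the patch release of mm10), read 5′ to 3′ on the strand of the gene. Their genes were chosen after the values were seen. In the first pair, from gained regions, capitals mark the octamer ATGCAAAT or its reverse complement. Pim2, a survival kinase, has its window at chrX:7878056-7878305 (plus strand), and Aldh1a1, a retinaldehyde dehydrogenase, at chr19:20601718-20601967 (plus strand).
Pim2: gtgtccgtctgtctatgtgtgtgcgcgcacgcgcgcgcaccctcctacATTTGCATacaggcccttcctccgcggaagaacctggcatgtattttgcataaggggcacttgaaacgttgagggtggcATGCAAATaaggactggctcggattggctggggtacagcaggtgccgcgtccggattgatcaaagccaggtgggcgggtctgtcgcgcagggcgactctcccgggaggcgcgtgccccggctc
Aldh1a1: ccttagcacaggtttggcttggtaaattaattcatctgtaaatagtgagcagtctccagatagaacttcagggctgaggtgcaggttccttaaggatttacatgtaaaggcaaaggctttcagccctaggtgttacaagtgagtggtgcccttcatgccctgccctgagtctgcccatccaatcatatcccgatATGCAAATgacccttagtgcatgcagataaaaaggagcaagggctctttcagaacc
In the next pair, also from gained regions, capitals mark any of 5 motifs: the Klf-type CCNCNCCC, the octamer, the Sox-type ACAANG, the AP-1 type TGANTCA and the Tead-type GGAATG, on either strand. Cldn3 (chr5:134985964-134986213, plus strand) and Epcam (chr17:87635729-87635978, plus strand) encode a tight junction protein and an epithelial adhesion molecule, and all their capitals are Klf-type matches. In Epcam a further Klf-type match, CCACTCCC, overlaps the end of the marked one and is not itself marked.
Cldn3: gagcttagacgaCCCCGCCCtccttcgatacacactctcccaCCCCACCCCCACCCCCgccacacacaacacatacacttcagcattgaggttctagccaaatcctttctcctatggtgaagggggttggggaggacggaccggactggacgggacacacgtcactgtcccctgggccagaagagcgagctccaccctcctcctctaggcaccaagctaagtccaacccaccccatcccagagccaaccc
Epcam: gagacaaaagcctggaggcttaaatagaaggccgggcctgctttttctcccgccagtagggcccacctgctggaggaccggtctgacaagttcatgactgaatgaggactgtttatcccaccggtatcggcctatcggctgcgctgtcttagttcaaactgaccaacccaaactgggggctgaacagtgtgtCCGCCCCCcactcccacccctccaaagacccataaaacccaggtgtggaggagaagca
In the last pair, from lost regions, capitals mark TGANTCA. Ecm1 (chr3:95739570-95739819, minus strand) encodes a matrix glycoprotein, and Krt13 (chr11:100120578-100120827, minus strand) a keratin of stratified epithelium.
Ecm1: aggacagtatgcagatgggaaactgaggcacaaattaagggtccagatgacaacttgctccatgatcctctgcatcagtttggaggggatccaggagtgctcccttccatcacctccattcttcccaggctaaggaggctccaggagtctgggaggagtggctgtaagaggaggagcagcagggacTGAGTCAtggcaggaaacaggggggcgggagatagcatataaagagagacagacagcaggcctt
Krt13: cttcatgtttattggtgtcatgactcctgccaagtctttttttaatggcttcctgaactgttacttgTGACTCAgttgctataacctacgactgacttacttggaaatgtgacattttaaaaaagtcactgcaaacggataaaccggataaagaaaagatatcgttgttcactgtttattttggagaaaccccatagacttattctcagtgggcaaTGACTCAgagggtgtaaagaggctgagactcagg

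The MEF lists held 74444 and 64295 peaks and the DAY6 lists 65145 and 58969. Read totals are unknown, so relative depth was taken from the background pileup, the commonest expected height under the peaks of a list. It was 3.415 and 8.322 in the MEF libraries and 3.453 and 2.327 in the DAY6 libraries, so MEF replicate 2 was the deepest of the 4 and DAY6 replicate 2 the shallowest. The part of depth in the calls was not tested, and values without a library are given where they move a count by over 1.5 times. For summits with a pileup of 100 to 200, the squared difference between the libraries of a pair averaged 10.6 times the counting variance in MEF. This ratio was 3.64 in DAY6 and 9.48 in ESC. The DAY3 pair (1.33) and the DAY9 pair (1.45) differed by little more than counting noise and are each counted as 1 sample. The series' design text calls the replicates biological, and their separate origin is not described further. Defining markers were checked at gene ends. A peak at a gene end was present for 10 and 8 of 10 fibroblast markers in the MEF lists and for 5 and 4 in the DAY6 lists. The ESC lists had one for 7 and 6 of these markers, so such a peak is not particular to fibroblasts. Of 7 epithelial markers, 2 and 0 had one in MEF and 6 in each DAY6 list, and of 9 pluripotency markers 2 and 4 in MEF and 7 in each DAY6 list. Both MEF lists had one at Pou5f1 and Sox2, whose factors the cassette encodes. Nanog and Esrrb were the pluripotency markers without such a peak at DAY6. Endothelial markers (1 of 5 in each MEF list, 2 in each DAY6 list) and blood markers (1 of 4 in every list) were mostly without peaks at their ends. Of 4 neural markers, 1 had such a peak in each MEF list (Neurog2) and 3 in each DAY6 list (Sox1, Neurog2 and Olig2).

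The gained regions made up 15.2% and the lost regions 16.9% of the merged regions, and 19984 regions (15.1%) had a peak in all 4 lists. The lists hold no read counts for a count test, and an exact two-sided permutation test of 2 libraries against 2 cannot reach a threshold of 0.05, so the calls are descriptions with no p-value. Outside the call lay 22233 regions with a peak in 1 of the DAY6 lists and in no MEF list, and 33701 with a peak in 1 MEF list and in no DAY6 list. A further 5496 regions had a peak in both DAY6 lists and 1 MEF list, and 3913 in both MEF lists and 1 DAY6 list. When each list was reduced to its 58969 peaks of highest score, there were 20502 gained and 18738 lost regions, so which of the 2 sets was the larger depended on the length of the lists. Without DAY6 replicate 2 there were 33328 gained regions, and without MEF replicate 1 or 2 there were 37031 or 41400 lost regions, since 1 list then decides the presence of a peak. These are 25.2% gained without DAY6 replicate 2, and 28.0% or 31.3% lost without MEF replicate 1 or 2, of the same merged regions. The list counts given further on are to be read against them where a library is left out.

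Most regions gained by day 6 were still present 3 days later, and each stem cell list had a peak in a smaller share of them. Of the 20156 gained regions, 90.4% and 90.6% had a peak in the DAY9 lists, against 46.0% and 46.2% of all merged regions. In the ESC lists 47.2% and 46.4% had one (46.8% ± 0.54, SD, n = 2), against 34.3% ± 0.37 of all merged regions. At least 1 ESC list had a peak in 55.3% of the gained regions, and both had one in 38.2%. At DAY3, before sorting, 48.4% and 49.0% already had a peak, against 30.9% of all merged regions. The DAY3 lists were the shortest of the series (45766 and 45497 peaks) and the ESC lists the longest (86585 and 88980), which bears on each of these shares.

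Lost regions behaved in the opposite way. A peak was present at DAY3 in 9.07% of the 22365 lost regions, at DAY9 in 4.59% and in ESC in 7.37% ± 0.67 (SD, n = 2). For 17371 of them (77.7%) neither DAY3, DAY9 nor ESC lists had a peak, and for 19481 (87.1%) both DAY3 lists already lacked one. Both ESC lists had a peak in 914 lost regions (4.09%). The plot of shares by stage shows the gained set at its highest on days 6 and 9 and the lost set near the bottom from day 3 on.

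**Figure D1:**
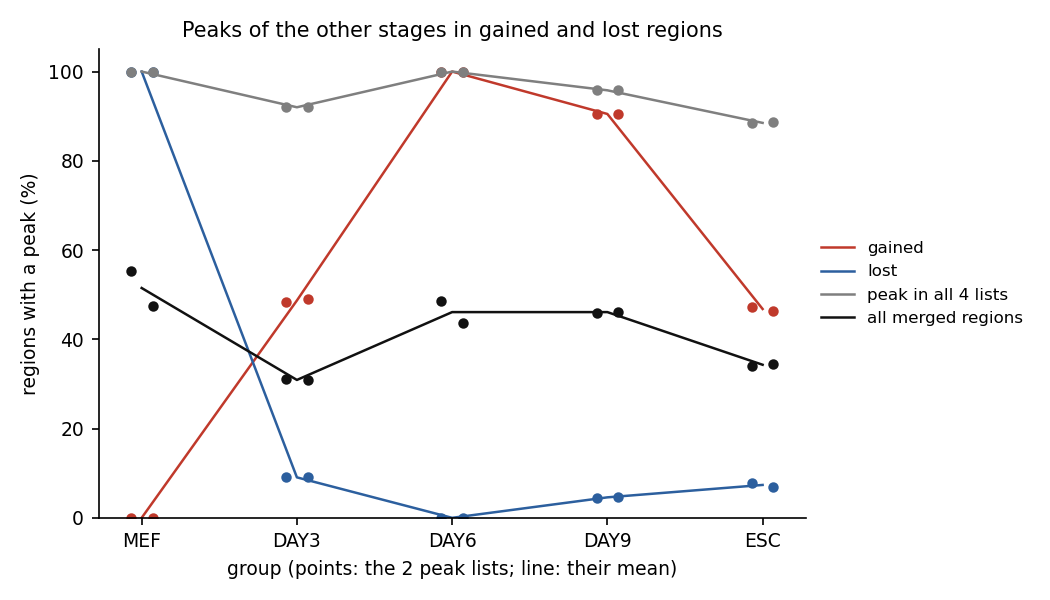
Share of regions (y axis, percent) with a peak in each of the 10 lists (x axis, by group), for gained, lost, shared and all merged regions; points are the 2 lists of a group and lines join their means. The values of 0 and 100 at MEF and DAY6 follow from the definition of the sets, while gained regions reach 90.5% at DAY9 and 46.8% in ESC, and lost regions stay between 4.59% and 9.07% at the stages not used for the calls.

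The gained set could be divided by its course. There were 2715 regions (13.5%) with a peak in both DAY3 and both ESC lists, and 4287 (21.3%) with a peak in both DAY3 lists and neither ESC list. Another 3785 (18.8%) had one in both ESC lists and neither DAY3 list, and 3326 (16.5%) had neither. The 6043 remaining regions (30.0%) had a peak in 1 of the 2 lists at DAY3 or ESC. The regions with a peak in neither DAY3 list but both ESC lists lay at a gene end in 9.25% of cases, and those with a peak in both DAY3 lists but neither ESC list in 3.99%. Among regions with both DAY9 peaks, 7111 (35.3% of the gained set) had no ESC peak. A peak at DAY6 and in no DAY3, DAY9 or ESC list was found for 423 gained regions.

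Peak strength, the authors' fold of a summit over its local background, went along with this course. Gained regions were ranked by the lower fold of their DAY6 peaks and cut into 4 bins of similar size, from a fold of 1.52 to one of 21.1. From the weakest to the strongest bin, the share with a peak in both DAY3 lists went from 19.5% to 71.5%, that in both DAY9 lists from 72.5% to 99.4%, and that in both ESC lists from 31.2% to 49.4%. In lost regions, ranked in the same way by their MEF peaks, the share with both DAY3 peaks went from 3.21% to 9.12%, whereas the share with both ESC peaks went from 5.67% down to 3.04%. Stronger peaks are also easier to call in any list, and the part of detection in these gradients was not tested.

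**Figure D2:**
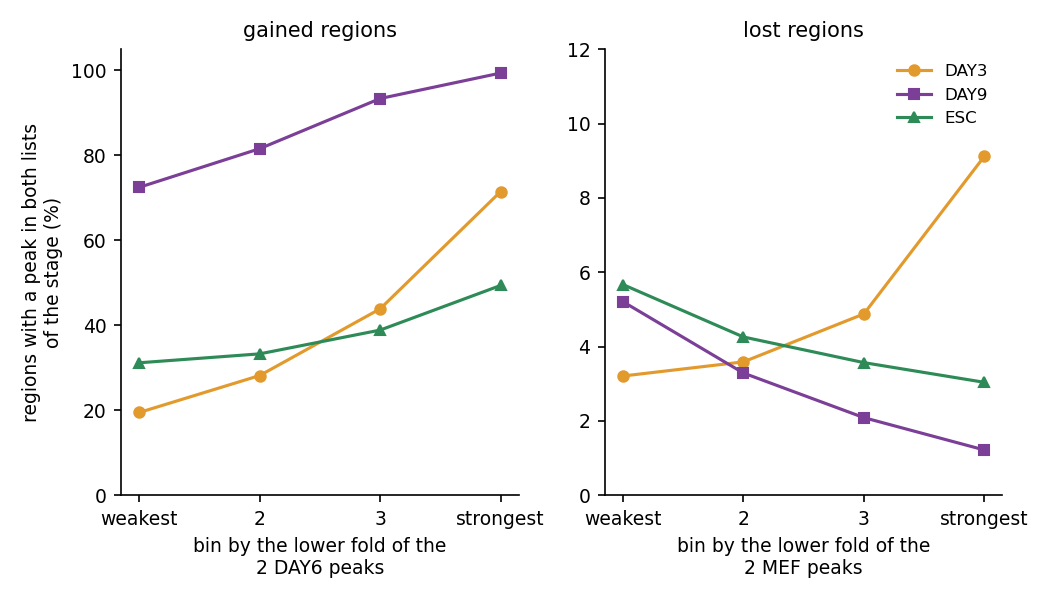
Share of gained (left) and lost (right) regions with a peak in both lists of DAY3, DAY9 or ESC (y axes, percent, different scales), by bin of the lower fold of their 2 peaks (x axis, weakest to strongest). The 3 stages go up together in gained regions, DAY3 from 19.5% to 71.5%, while in lost regions DAY9 and ESC go down as DAY3 goes up.

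Both sets lay away from the ends of genes. Of the gained regions 6.33% came within 1 kb of either end of a protein-coding gene, 48.0% lay inside a gene body and 45.7% outside. Of the lost regions 3.86% were at a gene end, 47.3% inside and 48.9% outside. Regions with a peak in all 4 lists were at a gene end in 52.8% of cases, and all merged regions in 13.2%. Counted at RefSeq transcription starts, which cover 17492 of the 21887 genes, the shares were 3.60% for gained, 1.86% for lost and 46.0% for shared regions. Between genes, the median distance to the nearest gene was 40.8 kb for gained, 47.3 kb for lost and 21.0 kb for shared regions. More than 500 kb from any gene lay 427 gained (2.12%) and 578 lost regions (2.58%), against 2.16% of all merged regions. Gained regions were a little wider than lost ones, with medians of 609 and 569 bp, and shared regions were widest at 973 bp.

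**Figure D3:**
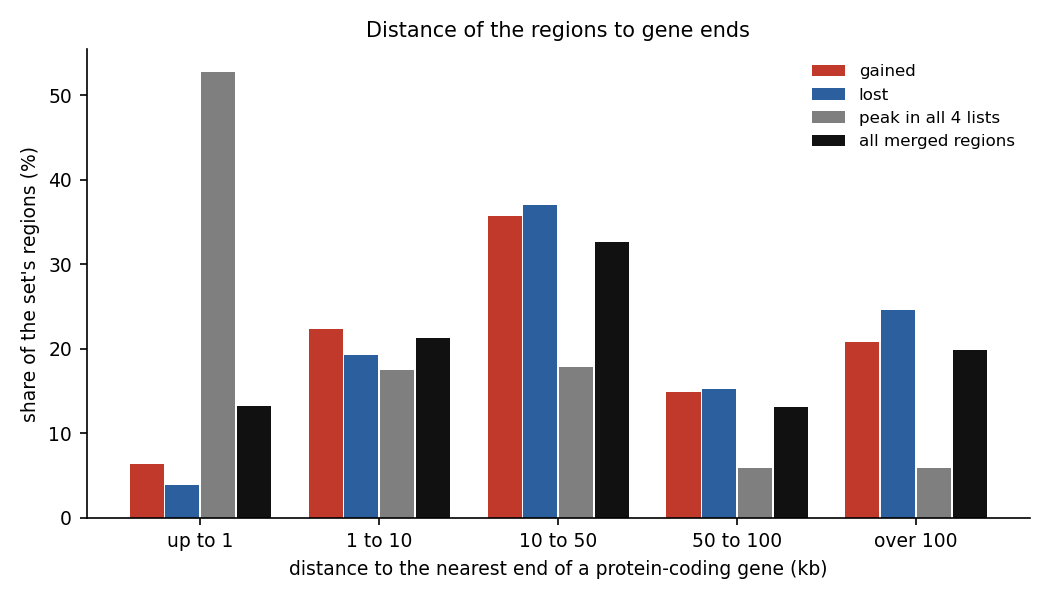
Share of each set's regions (y axis, percent) by distance to the nearest end of a protein-coding gene (x axis, kb). Shared regions concentrate within 1 kb (52.8%), while gained and lost regions are most frequent between 10 and 50 kb (35.7% and 37.0%).

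Promoters of the 2 sets differed in motif content. A gained region overlapped 492 RefSeq promoter windows (250 bases before to 50 after a start) of 454 genes, a lost region 229 windows of 213 genes, and a shared region 10928 windows. The AP-1 type motif TGANTCA occurred in 63 of the 229 lost windows (27.5%), in 32 of the 492 gained windows (6.50%) and in 6.99% of all 21263 windows. The octamer, as in the Pim2 and Aldh1a1 sequences above, occurred in 22 gained windows (4.47%), in 4 lost windows (1.75%) and in 1.66% of all windows. The Klf-type CCNCNCCC, as in Cldn3 and Epcam, was found in 73.4% of gained, 50.7% of lost, 71.7% of shared and 56.6% of all windows. GC content was 58.4% in gained, 52.7% in lost, 62.5% in shared and 56.2% in all windows, and its part in the Klf-type share was not tested. The Sox-type motif (38.6% gained, 42.8% lost, 38.1% of all) and the Tead-type motif (13.4%, 18.8% and 13.6%) were nearer to their share in all windows. Matches of different motifs can overlap each other.

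Across the settings tried, the AP-1 share of lost windows ranged from 17.6% with the list length cut to the peaks of highest score to 27.5%, above the 6.99% of all windows each time. Promoters on chromosome 18 were left out of the rankings by fold that follow. Among lost promoters with the AP-1 motif before the start, the strongest were those of Dmd (dystrophin), with a lower MEF fold of 9.33, and Lpin3 (a phosphatidate phosphatase), with 8.57. Ecm1 had 4.18 and Krt13, whose sequence holds 2 matches, 4.24. The strongest gained promoters with an octamer were those of Prx (periaxin), with a lower DAY6 fold of 12.9, and Pipox (an oxidase of peroxisomes), with 9.73. Gm50598 (9.70), Aldh1a1 (9.64) and Pim2, with 2 octamers (8.94), followed. Zfp296, which encodes a zinc finger protein of pluripotent cells, had an octamer and a lower fold of 2.37. Among genes of the lists, none of the lost promoters (Cnn1, Col3a1, Col6a3, Postn, Runx2 and Twist2) had an AP-1 match before the start, Col3a1 had an octamer, and the gained promoter of Cldn4 had 2 AP-1 matches.

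Regions were assigned to their nearest protein-coding gene. A gained region was assigned to 8331 of 21887 genes (38.1%) and a lost region to 8018 (36.6%), and 4956 genes had both, which is 59.5% of the former and 61.8% of the latter. At the ends of genes the calls were fewer, with 1330 genes gained (6.08%) and 892 lost (4.08%). These shares are the backgrounds for 11 lists of 266 genes in all. Genes on the lists have many merged regions each, so shares of regions are given beside the counts of genes.

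Pluripotency factors had more gained than lost regions. The 32 genes had 435 merged regions, of which 100 were gained (23.0%) and 60 lost (13.8%), and 20 genes had more gained than lost regions while 5 had fewer. Without MEF replicate 1 or 2 the list had 114 or 106 gained and 113 or 108 lost regions, and without DAY6 replicate 2 it had 156 gained ones. Both ESC lists had a peak in 69 of the 100 gained regions (69.0%), against 38.2% of all gained regions. Tet2, an enzyme that oxidises methylcytosine, had 10 gained and 5 lost regions, and Sox2, a factor of the cassette, 9 and 6. Jarid2, a cofactor of Polycomb repression, and Klf5, a Krüppel-like factor of naive cells, had 8 gained and 3 lost regions each, and Mycn, a Myc family gene, 8 and 4. The 4 genes with the most lost regions included Klf4, with 9 lost and 2 gained.

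Single loci of the list differed from each other. Prdm14, a repressor of differentiation in naive and germ cells, had 6 gained and no lost region, and each of the 6 was present in both ESC libraries. The strongest, at chr1:13084581-13085394 and 28.0 kb from the gene, had folds of 8.53 and 8.45 at DAY6, 15.0 and 13.1 at DAY9 and 14.7 and 10.4 in ESC, with no peak in MEF or DAY3. For Pou5f1, which encodes Oct4, the gained region lay 1.70 kb from the gene (chr17:35503750-35504332), with folds of 6.89 and 8.09 at DAY6 and 7.69 and 4.91 in ESC. No DAY3 list had a peak there. Nanog, a homeodomain factor of the pluripotency core, had no gained region and 1 lost region, 17.1 kb from the gene. These 3 genes were singled out after their values were seen.

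Regions on either side of Sox2 changed in both directions. The gained region closest to the gene, 8.88 kb away (chr3:34640725-34641116), had folds of 3.58 and 3.35 at DAY6 and 3.70 and 3.21 in ESC. At chr3:34745221-34745707, 92.8 kb from the gene, a gained region had folds of 3.59 and 6.01 at DAY6, 6.36 and 4.78 at DAY9 and 16.0 and 9.13 in ESC. A lost region lay less than 2 kb away (chr3:34743470-34744109), with folds of 4.53 and 9.56 in MEF and no peak at any other stage. At chr3:34558885-34559556, 90.4 kb from the gene on the other side, a gained region had peaks at DAY3 (8.96 and 7.73), DAY6 (7.86 and 8.04) and DAY9 (6.40 and 6.98) but none in ESC. A gained region was thus present at some distance on either side of the gene, with and without a peak in stem cells. Regions over the gene bodies of the cassette factors can also hold reads of the cassette. The Myc gene body held a gained region (chr15:61987760-61988178), with folds of 2.42 and 2.36 at DAY6 and no peak in ESC, and none of the other regions over these 4 genes was gained or lost.

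Epithelial genes were the list with the highest share of gained regions. Of 163 regions of the 30 genes, 58 were gained (35.6%) and 17 lost (10.4%), or 59 and 30 without MEF replicate 2. A gained region lay at an end of 15 of the 30 genes, and a lost region at none, against 6.08% and 4.08% of all genes. Grhl2, a Grainyhead factor that activates junction genes, had 6 gained and 2 lost regions, Dsg2 (a desmosomal cadherin) 5 and 3, Cldn4 (a tight junction claudin) 4 and 1, and Grhl3 likewise 4 and 1. At the ends of genes the claudins Cldn3, Cldn4 and Cldn7, the adhesion molecule Epcam, the keratin Krt18, the splicing regulators Esrp1 and Esrp2, and the repressors Ovol1 and Ovol2 were gained. So were Cdh1, Dsg2, Grhl2, Marveld3, Spint1 and Tjp3.

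At Cdh1, the gained region at the gene end (chr8:106603084-106603612) had folds of 6.98 and 7.90 at DAY6, 11.6 and 10.6 at DAY9 and 8.09 and 6.53 in ESC, and no peak at DAY3. A second gained region, inside the gene at chr8:106631509-106633043, had peaks at DAY3 (7.34 and 8.21), DAY6 (13.0 and 7.97), DAY9 (10.0 and 10.4) and ESC (3.33 and 4.75). The gained region over the Cldn3 promoter, whose sequence is printed above, likewise had a peak at DAY3 (5.56 and 5.84), with 12.1 and 12.2 at DAY6, 12.1 and 13.6 at DAY9 and 10.4 and 7.26 in ESC. That over the Epcam promoter had none at DAY3, 3.59 and 4.92 at DAY6 and 7.15 and 7.60 at DAY9. Inside Cdh1 and at Cldn3 the peaks were thus already listed in the unsorted day 3 cells, and at the ends of Cdh1 and Epcam from day 6 on. Among the gained ends of epithelial genes, Ovol1 alone had no peak in ESC, with 3.37 and 5.11 at DAY6 and 9.08 and 9.84 at DAY9. Tjp3 had a peak in only 1 ESC list (2.52). On other lists, the gained ends of Axin2, Fgf18, Jak1 and Tpm1 also had no ESC peak.

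**Figure D4:**
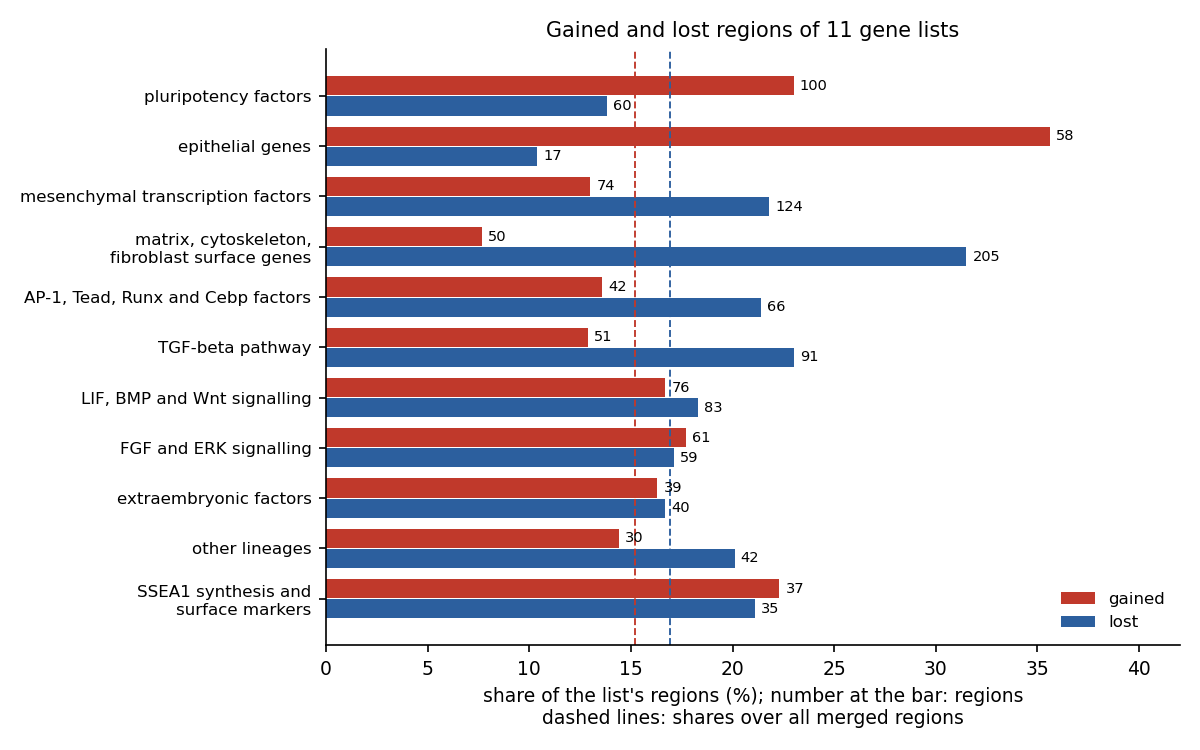
Share of each list's merged regions that were gained (red) or lost (blue) (x axis, percent; the number at each bar is the number of regions), for the 11 gene lists (y axis); dashed lines mark 15.2% and 16.9%, the shares over all merged regions. Epithelial genes reach 35.6% gained and matrix genes 31.5% lost, while the FGF, extraembryonic and surface marker lists have similar shares of both.

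Matrix, cytoskeleton and fibroblast surface genes were the reverse of the epithelial genes. Of 651 regions of the 37 genes, 205 were lost (31.5%) and 50 gained (7.68%), and 30 genes had more lost than gained regions while 1 had fewer. Without MEF replicate 2 there were 387 lost regions, and without DAY6 replicate 2 there were 93 gained ones. No peak of DAY3, DAY9 or ESC was present in 164 of the 205. The cadherin gene Cdh11 had 18 lost and 4 gained regions, Thbs1 (thrombospondin, an adhesive glycoprotein) 17 and 3, Cdh2 (N-cadherin) 17 and 10, and Fn1 (fibronectin) 13 and 3. A lost region lay at an end of 12 genes. Among them were the collagen genes Col1a1, Col3a1 and Col6a3, Postn (a matricellular protein), Tnc (tenascin), the contractile genes Cnn1, Tagln and Tpm2, and the intermediate filament gene Vim. At the Col3a1 end (chr1:45311131-45311816) the MEF folds were 5.29 and 3.07, and at the Postn end (chr3:54358394-54359113) 8.19 and 5.50, with no peak at any other stage. The Tagln and Vim ends kept peaks at DAY3 (4.96 and 3.68, and 5.06 and 3.32) and had none at DAY6.

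Gained regions were also found at matrix genes. At Col1a1, which carries the cassette, 1 end had a lost region (MEF folds 5.13 and 2.97) and the other a gained region (chr11:94952089-94952989), with 6.94 and 5.51 at DAY3, 10.3 and 10.3 at DAY6 and 10.4 and 8.82 at DAY9. In ESC, replicate 2 had a peak of 3.10 in the gained region and replicate 1 had none. Whether reads of the inserted cassette contribute there was not tested. At Fn1 a gained region 19.9 kb from the gene (chr1:71673155-71674053) had folds of 15.3 and 14.8 at DAY6 and of 15.9 and 14.6 in ESC, amid the lost regions of the same locus.

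Mesenchymal transcription factors had 74 gained (13.0%) and 124 lost regions (21.8%) of 568, and 18 of 30 genes had more lost than gained regions while 8 had fewer. Counted within 50 kb of the genes, the list had 57 gained and 68 lost regions, so the difference was smaller close to the genes. Without DAY6 replicate 1 or 2 the list had 118 or 113 gained regions, and without MEF replicate 2 it had 241 lost ones. Zeb2, a repressor of epithelial genes, had 23 lost and 10 gained regions and came after Lpp and Flrt2 among all genes by lost regions. These are nearest-gene counts at any distance, and within 300 kb of Zeb2 there were 12 lost and 8 gained regions. Nr2f2, an orphan nuclear receptor, had 11 lost and 3 gained, and the early B-cell factor gene Ebf1 12 and 13. Tcf4, an E-protein gene, went the other way with 15 gained and 9 lost regions. At gene ends, Snai1 and Twist2, repressors of the epithelial program, and Hic1 were lost, while an end of Ebf1 was gained. The Snai1 region (chr2:167543210-167544231) had MEF folds of 5.86 and 3.28 and no other peak. The Twist2 region (chr1:91800905-91802059) still had peaks at DAY3 (4.99 and 4.10) and 1 peak in ESC (3.10). The Hic1 region, with MEF folds of 2.57 and 2.09, had 1 peak at DAY3 (2.57). It also had peaks in both DAY9 (2.02 and 2.45) and both ESC lists (2.77 and 3.03).

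The genes of AP-1, Tead, Runx and Cebp factors had 66 lost (21.4%) and 42 gained regions (13.6%) of 309, and 11 of 22 had more lost regions while 5 had more gained ones. Under an alternative setting, presence needed a score of the median or higher, while any peak still counted against absence. The order then turned to 23 gained and 18 lost regions. Without DAY6 replicate 2 there were 70 of each, and without MEF replicate 2 there were 120 lost regions. Runx1, a factor of blood and mesenchyme, accounted for 21 of the lost and 9 of the gained regions. Jun had 9 gained and 7 lost regions and Tead1, a partner of the coactivator Yap1, 9 and 8. Fosl2 had 1 gained and 2 lost regions. The gained one, 25.2 kb from the gene (chr5:32183085-32184132), had folds of 9.44 and 11.5 at DAY6 and 14.3 and 13.6 at DAY9. An end of Runx2 was lost after DAY3, with folds of 10.6 and 3.43 in MEF and 6.49 and 4.94 at DAY3. Fosl2 was singled out after its values were seen.

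In the TGF-beta pathway, which maintains the mesenchymal state, 91 regions were lost (23.0%) and 51 gained (12.9%) of 395, with 14 of 20 genes having more lost regions and 4 more gained ones. Among ligands and receptors, Tgfb2 had 10 lost and 8 gained regions, and ends of Tgfb1 and Tgfbr2 were lost while an end of Tgfb2 was gained. Ltbp1, which stores latent ligand in the matrix, had 14 lost and 12 gained regions. Smad3, a signal transducer, had 10 lost and 2 gained regions. Of the targets, Tgfbi had 7 lost regions and none gained. Without DAY6 replicate 1 or 2 the list had 82 or 91 gained regions, and without MEF replicate 2 it had 158 lost ones, with more lost than gained each time.

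Other signalling lists showed no such lean. LIF, BMP and Wnt genes had 76 gained (16.7%) and 83 lost (18.3%) of 454 regions, with Bmp7 at 10 gained and 1 lost, Tcf7l1 at 8 and 6, and Tcf7l2 at 6 and 14. Without DAY6 replicate 2 these genes had 127 gained regions, and without MEF replicate 1 or 2 they had 137 or 141 lost ones. FGF and ERK genes had 61 gained (17.7%) and 59 lost (17.1%) of 345, led by Spry2, a feedback inhibitor, at 12 and 11, and Spred2 at 10 and 4. Without DAY6 replicate 2 they had 100 gained and 63 lost regions, and without MEF replicate 2 they had 66 and 110, so the larger set depended on the library left out. Both gene ends of Fgf4, a ligand of stem cells counted among the pluripotency factors, were gained. Etv5, a transcription factor downstream of ERK, had 6 gained regions, 1 of them at its end, and 1 lost.

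Genes of other fates were mixed. Extraembryonic factors had 39 gained (16.3%) and 40 lost (16.7%) of 239 regions, with 67 gained without DAY6 replicate 2 and 71 or 68 lost without MEF replicate 1 or 2. Tfap2a and Tfap2c, AP-2 factors of trophoblast and surface ectoderm, had 7 gained regions each and none lost, while Gata3 had 13 lost and 6 gained, and Ets2 8 lost and none gained. The neural, endothelial and blood list had 30 gained (14.4%) and 42 lost (20.1%) of 209, with gained ends at the neural genes Sox1, Neurog2 and Olig2. Without DAY6 replicate 1 or 2 this list had 49 or 52 gained regions, and without MEF replicate 1 or 2 it had 69 or 64 lost ones. The Sox1 end (chr8:12394812-12395884) had folds of 4.97 and 6.15 at DAY6 and 5.83 and 5.91 in ESC.

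SSEA1 synthesis and surface marker genes, which include enzyme genes for the antigen used for sorting, had 37 gained (22.3%) and 35 lost (21.1%) of 166 regions, and 54 lost without MEF replicate 2. Fut9, the fucosyltransferase that makes the SSEA1 epitope in early embryos, had 4 gained and 2 lost regions. Its gained end (chr4:25798972-25800352) had folds of 5.62 and 5.36 at DAY6, 5.10 and 5.63 at DAY9 and 6.60 and 8.11 in ESC, and 1 of the DAY3 lists had a peak of 2.93. Podxl, which encodes the sialomucin podocalyxin, had 10 gained and 4 lost regions, 1 of the lost ones at the gene end, with MEF folds of 6.56 and 4.06. Alpl, the alkaline phosphatase of stem cells, had 5 and 0. Kit, a receptor tyrosine kinase, had a gained end with folds of 6.99 and 7.40 at DAY6 and no peak at DAY3. Cd44, a hyaluronan receptor of fibroblasts, had 7 lost and 3 gained regions.

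Over all genes, the highest nearest-gene counts, which take in regions at any distance, were at genes longer than the median. Gained regions were most numerous at Adgrl2, an adhesion receptor gene of 174 kb with 37 gained and 9 lost regions, Tenm4 (740 kb, 31 and 19) and Magi2 (1485 kb, 28 and 8). Foxp1, Auts2, Pde4d, Tbl1xr1, Cdh13 and Tns3 were also high, with 22 to 25. Lost regions were most numerous at Lpp, a focal adhesion protein gene of 599 kb with 27 lost and 8 gained regions, Flrt2 (93.2 kb, 24 and 9) and Zeb2 (134 kb, 23 and 10). Arhgap26, Efnb2, Tbl1xr1, Adgrl3, Auts2, Dlg2 and Mctp2 followed with 21 or 22. Auts2 and Tbl1xr1 stood in both rankings. The median protein-coding gene was 17.2 kb long, and the median gene with regions of both sets 64.9 kb.

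Gained regions lay near other gained regions and lost near lost. A neighbour of the same set was found within 25 kb of 51.2% of gained and 54.3% of lost regions, and a neighbour of the other set within 25 kb of 41.0% and 38.1%. Runs were formed of regions less than 25 kb apart, without a region of the other set between. They are named by the nearest genes of their regions, at any distance. The longest gained runs were those of Adgrl2 (9 regions over 76.9 kb), of Pdia4 and Gm40363 (9 over 38.7 kb) and of Arid1b, a subunit gene of the BAF remodeller (9 over 81.5 kb). Dclk2 and Tet2 followed with 8 each. The Adgrl2 run (chr3:149305414-149382318) lay outside the gene itself (chr3:148815586-148989096). All 9 regions of the first 3 runs had a peak in both DAY9 lists, and both ESC lists had a peak in 1, 0 and 2 of them. At Tet2 (chr3:133467216-133533135) 7 of the 8 had both DAY9 peaks and 4 both ESC peaks. The strongest of these, at chr3:133524355-133525333, had folds of 10.9 and 9.45 at DAY3, 12.9 and 14.8 at DAY6, and 9.67 and 9.27 in ESC.

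Runs of lost regions were longer. The longest had 14 regions over 144 kb between Rxra and Col5a1 (chr2:27745864-27889384), where none of the 14 had a peak in both DAY9 or both ESC lists. Next came 12 regions over 127 kb nearest Cdkn2b, a cell cycle inhibitor gene, and Dmrta1. A run of 11 over 107 kb nearest Fn1 and Mreg followed. This run (chr1:71865122-71972329) lay outside the Fn1 gene (chr1:71585473-71653280). Rnf150 and the pair Vmp1 and Tubd1 had 9 each. In the run beside Col5a1, a fibrillar collagen gene, the strongest regions were at chr2:27842521-27843249, with MEF folds of 13.0 and 7.08, and at chr2:27835596-27836575, with 12.1 and 6.22. Neither had a peak in any other group.

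**Figure D5:**
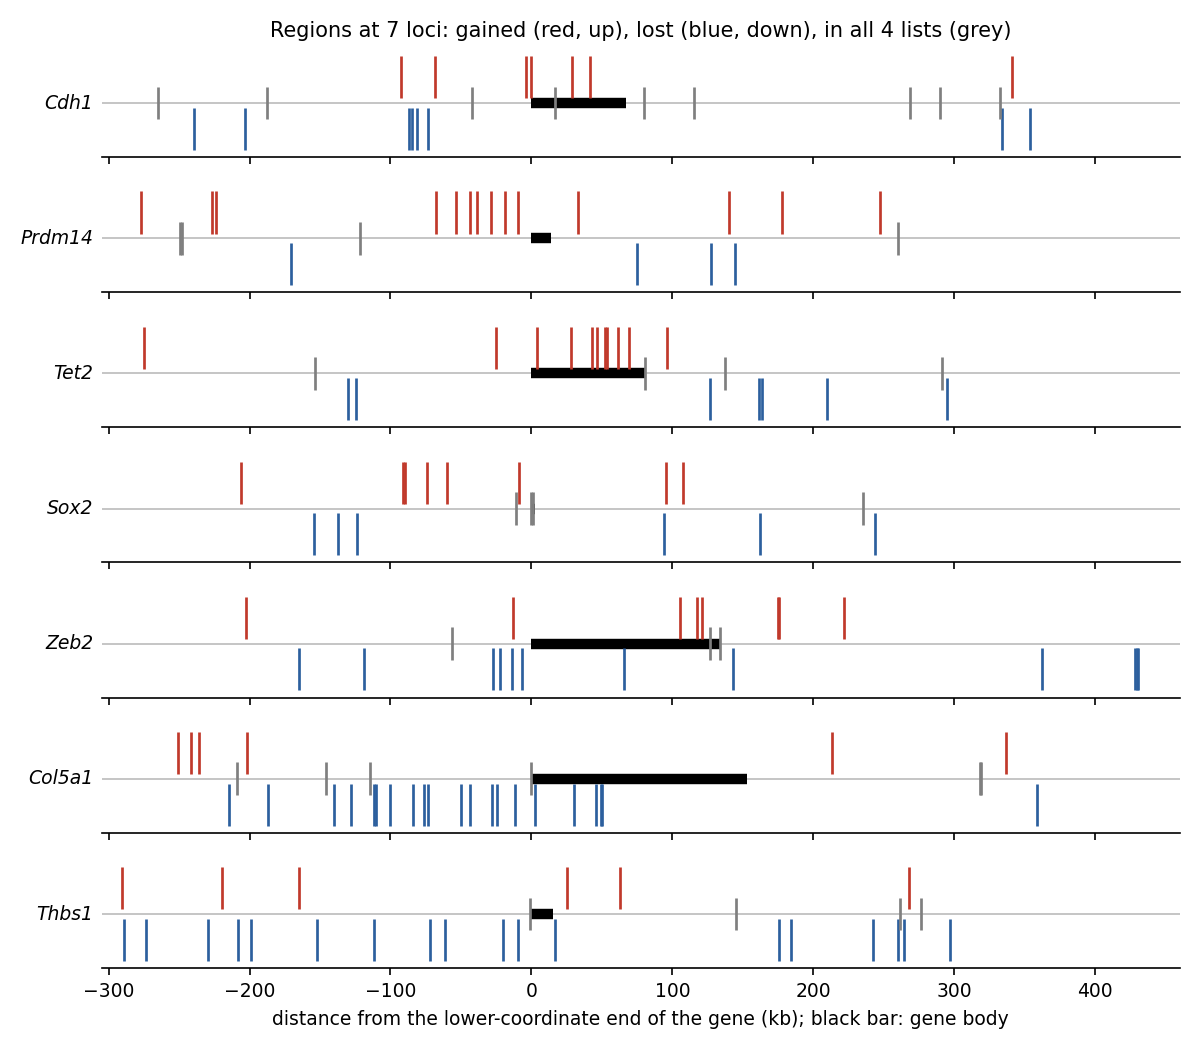
Gained (red), lost (blue) and shared (grey) regions within 300 kb of 7 genes, by distance from the lower-coordinate end of the gene (x axis, kb; black bar, gene body); regions of other patterns are not drawn. Prdm14 has 14 gained and 4 lost regions in its window and Tet2 11 and 7, whereas Thbs1 has 6 and 18 and Col5a1 6 and 21, and at Sox2 and Zeb2 both sets interleave.

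MicroRNA genes were examined within 2 kb of 1005 RefSeq hairpins, a window chosen after the values were seen. A gained region lay within this distance of 67 hairpins (6.67%) and a lost region of 61 (6.07%). The sequences below are of the clusters known from stem cells and fibroblasts, with the seed (bases 2 to 8) in capitals. The miR-302b and miR-302d sequences share the seed AAGUGCU, and miR-29a and miR-29b share AGCACCA; the first 4 come from hairpins near gained regions and the last 3 from hairpins near lost ones.
mmu-miR-302b-3p: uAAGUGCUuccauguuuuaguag
mmu-miR-302d-3p: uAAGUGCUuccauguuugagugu
mmu-miR-291b-3p: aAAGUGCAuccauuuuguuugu
mmu-miR-290a-3p: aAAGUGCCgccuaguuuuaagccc
mmu-miR-199a-3p: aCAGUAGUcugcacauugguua
mmu-miR-29a-3p: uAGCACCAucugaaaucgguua
mmu-miR-29b-3p: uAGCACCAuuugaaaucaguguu
A gained region lay 73 bp from the Mir302b hairpin (chr3:127544614-127545155), with folds of 9.21 and 3.61 at DAY6, 6.38 and 7.29 at DAY9, and 8.40 and 10.2 in ESC. Mir302a, Mir302c, Mir302d and Mir367 of the same cluster were within 578 bp of it. Another lay 699 bp from Mir290a (chr7:3217574-3217927), with 2.91 and 4.21 at DAY6 and 4.96 and 2.96 in ESC. Neither had a peak in MEF or at DAY3. The microRNAs of both clusters promote the stem cell cycle and are known to aid reprogramming.

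On the lost side, all 3 hairpins of the miR-199 family, which is expressed in mesenchyme, had a lost region in reach. The region at Mir199a-1 (chr9:21496467-21497442) had MEF folds of 6.97 and 5.87 and 1 DAY3 peak of 4.83, that at Mir199b (chr2:32317050-32318530) MEF folds of 5.30 and 6.00 and 1 peak each at DAY9 (2.99) and in ESC (3.10), and that 1697 bp from Mir199a-2 MEF folds of 3.93 and 4.57. A lost region 266 bp from Mir29a, whose microRNA targets collagen transcripts, had MEF folds of 5.39 and 5.46. At Mir34a, a target of p53, a gained region (3.59 and 3.61 at DAY6) lay 1343 bp and a lost region (3.85 and 5.19 in MEF) 1523 bp from the hairpin.

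Of the 5 strongest gained regions, 4 lay outside genes, 53.8 to 467 kb away, and that of Grik2 lay inside the gene. By the lower fold of its 2 DAY6 peaks, the strongest gained region was at chr19:49675821-49676430, 467 kb from Sorcs1, a sorting receptor gene. Its folds were 14.8 and 15.7 at DAY3, 21.1 and 24.0 at DAY6, 22.8 and 20.2 at DAY9, and 7.81 and 6.66 in ESC. Regions nearest Plod2, Pdzrn3, Lpar4 and Grik2 followed, Plod2 with 20.9 and 20.8 at DAY6, and all 5 had peaks in every DAY3, DAY9 and ESC list. The strongest at a gene end was at F2, the prothrombin gene (chr2:91636497-91637193), with 18.1 and 17.1 at DAY6. Those at Lrrc52, Gm14279, 2310057N15Rik and Ccdc192 came next, and 2 of these 4 had no peak in ESC.

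Among lost regions the strongest lay 315 kb from Fmr1, an RNA-binding protein gene (chrX:68363281-68363702), with MEF folds of 23.8 and 20.8 and no peak at DAY6, DAY9 or in ESC. Regions inside Zfp407 and Nrxn3 and beside Ctnna2 and Dnajb9 followed, with lower folds of 15.4 to 16.7. At a gene end the strongest lost region was that of Ifi205, an interferon-inducible gene (chr1:174031627-174032407), with 16.5 and 11.2 in MEF and no peak in any other group, followed by Pth2r, Apol7a, Siglecg and Aff1. Unlike the strongest gained regions, these 10 lost regions had no peak in either DAY9 list.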

How the data were processed

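Open chromatin was measured by ATAC-seq in 10 mouse libraries, of which the 2 MEF and 2 DAY6 libraries were compared and the 6 others served as reference. The authors deposited 1 peak list of 10 columns per library, called per library and not on pooled replicates. Its score, its fold (the summit height relative to the surrounding background, a linear ratio) and its −log10 p-value are the authors' own, as deposited. No −log10 p-value was under 5.00. The submitters' processing notes name Bowtie2 2.3.2, MACS2 2.1.1, deepTools 2.3.6 and mm10. Filters, duplicate handling and the transposase offset are not given in the sources used here.

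Peaks of the 4 lists were merged at an overlap of 1 bp, and presence in any list was counted at the same overlap. Genes were the 21887 protein-coding genes of the RefSeq table (GRCm38.p6), which has no strand, so a gene end is either end, with a window of 1 kb. Exons and introns were not used here. The lower of a group's 2 folds ranked regions within the set. Background pileups were recovered from the fold and −log10 p-value with a tolerance of 0.01. The calling step was tested on simulated lists, all made from a single DAY3 list with small shifts and known regions removed. This checks the logic of the calls only, since the simulated lists did not differ in depth or between replicates as the real ones do. Python 3.11.15, numpy 2.4.6, pandas 2.3.3 and scipy 1.17.1 were used.

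The members and the gene lists were chosen with earlier results of these data known. Genes were named by these rules: per list, up to 4 with the most gained and up to 4 with the most lost regions; the 10 genes with the most of each; the 5 strongest regions of each set, overall and at gene ends; the 5 longest runs; and list genes with a gained or lost end. Some genes that these rules name are not reported here. Other named genes were chosen after their values were seen. The alternatives changed list length, score limits, overlap, merging, gene-end windows, gene assignment and the libraries used. The promoter table lacks some genes, microRNA and promoter sequences are from RefSeq, and no genome sequence was used.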

Additional observations from a re-analysis of the deposited data

How the results depend on the processing

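Gained regions exceeded lost ones in gene-end share and in the share with an ESC peak under every setting run. With each list cut to the 50% of its peaks with the highest scores there were 10577 gained and 11112 lost regions, of which 9.07% and 4.65% lay at a gene end and 42.2% and 5.45% had an ESC peak. Another alternative needed a score of the median or higher for presence, while any peak still counted against absence. It gave 8507 and 8944 regions, gene-end shares of 5.38% and 3.30%, and an ESC share of 54.0% for gained regions. With equal numbers of peaks 7.10% of gained regions were at a gene end and 48.7% had an ESC peak. When 50% of the region had to be covered, gene-end shares were 7.40% and 4.40% and ESC shares 42.9% and 5.97%. Gene-end windows of 2.5 and 5 kb gave 11.2% and 17.5% of gained and 8.13% and 13.8% of lost regions, and RefSeq starts, an alternative added after seeing the data, 3.60% and 1.86%.

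Leaving out 1 of the 4 libraries in turn gave 21060 to 33328 gained and 23849 to 41400 lost regions, gene-end shares of 6.11% to 8.61% and 3.99% to 4.54%, and ESC shares of 39.6% to 51.6% and 6.96% to 11.1%. Calling within each replicate number, as a replicate block, gave the same 20156 gained and 22365 lost regions by construction, because a call needs both libraries of a group. No model was fitted.

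More gained than lost regions were counted for epithelial genes under 12 of 12 settings, and fewer for matrix, mesenchymal factor and TGF-beta genes under 12 of 12. The lean of pluripotency genes held under 11 of 12 and that of AP-1, Tead, Runx and Cebp genes under 10, while those of the other lists changed direction with the setting. The cause of these changes was not tested. The 12 settings include the replicate block, which repeats the main calls by construction, so its agreement in every tally was fixed in advance.

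Depth is known only as relative pileup, so the absence of a peak means that none was detected at that depth. Regions were assigned to genes by distance alone. Sorting, medium, doxycycline and time cannot be told apart, and in a mixed population fewer open cells and weaker opening per cell cannot be told apart.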

Other observations

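The X chromosome differed from the autosomes in its calls. Of 3143 merged regions on the X, 555 were gained (17.7%) and 298 lost (9.48%), whereas the autosomes ranged from 12.4% to 16.6% gained and from 15.1% to 18.9% lost. The X held 2.28% and 1.68% of the peaks of the MEF lists, 2.73% and 2.62% of those of DAY6, 2.57% and 2.56% of those of DAY9, and 2.83% and 3.04% of those of ESC. MEF replicate 2 was thus the list with the smallest share, and without it 27.7% of X regions were lost, against 31.4% of autosomal regions, and 18.0% gained, against 15.9%. Without MEF replicate 1 the X had 15.9% lost, against 28.3%, and 22.4% gained, against 18.6%. The X thus had the lower share of lost regions in both cases, by less without MEF replicate 2. Without DAY6 replicate 1 or 2 it was 10.2% or 10.3% on the X and 18.9% or 18.2% on the autosomes. The cause was not tested.

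A small part of the lost set had peaks at DAY9 and in the separate stem cell line. The 248 lost regions with a peak in both DAY9 and both ESC lists lay at a gene end in 15.7% of cases. This share was 3.86% for all lost regions and 2.96% for the 17371 without a peak in any DAY3, DAY9 or ESC list. The median lower MEF fold of the 248 was 3.11, and that of the 17371 was 3.65. Whether peaks in the 248 regions were missed at DAY6 was not tested.

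Regions just outside the call differed from those inside it in their share with ESC peaks. Where both DAY6 lists and 1 of the 2 MEF lists had a peak, 61.3% had a peak in both ESC lists, compared with 38.2% of gained regions and 19.8% of regions with a peak in 1 DAY6 list only. Where both MEF lists and 1 DAY6 list had a peak, 33.0% had a peak in both ESC lists, compared with 4.09% of lost regions.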
